A study of Homo sapiens with 15 samples.

Results

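The promoters of 10 germline genes were followed in HCT116 cells, an established line from a human colorectal cancer, by bisulfite sequencing of the whole genome: DAZL, DDX4, MAEL, SYCP3, TDRD1, PIWIL1, PIWIL2, TEX101, BOLL and STK31. They are 10 of 20007 protein-coding genes. A promoter was defined as all CpGs within 500 bp of any GENCODE transcript start of the gene on hg38, and its methylation level (mC) as methylated reads over all reads at those CpGs. The genes were chosen by name, and all 10 were among the 18993 promoters that had at least 5 CpGs and 50 CpG reads (1 read at 1 CpG) in every library.

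All cells carried a short hairpin RNA (shRNA) switched on by doxycycline. It targeted UHRF1 in 3 clones (Cl.3, Cl.6 and Cl.9) or DNMT1 in 2 bulk populations (R1 and R2). DNMT1 copies methylation onto newly made DNA strands, and UHRF1 guides it there. Baseline cells were grown 14 days without doxycycline, Knockdown cells 14 days with 10 ng/mL doxycycline, and Recovery cells 14 days with and then 14 days without it, so that Recovery was taken at day 28 and had no baseline of that day. The 15 libraries held 315732617 to 590592161 CpG reads, with a median depth of 11 to 20 per CpG. The clones all carried shUHRF1 and the bulk cultures shDNMT1, and their counts were deposited in separate tables, so that effects of the shRNA, of cloning and of the table cannot be told apart below. The labels do not say that R1 and R2 or the stages were separate cultures, and p-values measure only the spread between these samples. In edgeR and limma this spread was estimated for each promoter from all 15 libraries together. The clones varied more: the median change at Knockdown had an SD of 7.95 points over clones and 0.821 over bulk populations. The p-values for shUHRF1 therefore do not measure the spread of the clones alone, which the SDs beside them show.

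Germline genes act in the making of eggs and sperm and are silent in other tissues. Many of their promoters are rich in CpGs, and unlike most such promoters they gain methylation in the early embryo and keep it in body cells through each division. The genes followed here serve different steps of germ cell life, from RNA control and the small RNAs (piRNAs) that silence transposons to the pairing of chromosomes in meiosis. RNA was not analysed here, so the values below are levels of DNA methylation and not of gene activity.

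To show how the spacing of CpGs differed along these promoters, 30 bases with the most CpGs and 30 bases around the most isolated CpG are shown for 4 of them. They were taken from the genes in which 5 or more CpGs of the window had 5 reads in all libraries, with PIWIL2 (60 CpGs) left out: of the others, MAEL had the most CpGs (58), TEX101 the fewest (37), and DDX4 (53) and STK31 (54) were nearest the median. Capitals mark CpGs, and sequences run 5′ to 3′ on the strand of the gene, here the plus strand of hg38.

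MAEL, dense: CGCGgggcaatgCGactgCGCGtCGcttcc
MAEL, isolated: acttttaaaaaattCGagttttgttgcttc
DDX4, dense: gcCGtttaagtCGCGtgggCGcctgCGagg
DDX4, isolated: tggttgtcctttgtCGgcaggatttgggca
STK31, dense: ccttgCGgtCGaagctcaCGCGgtaagcCG
STK31, isolated: gattagttgaccaaCGcttgtaaagctacc
TEX101, dense: aaggCGttcCGggcctcaactttggCGtCG
TEX101, isolated: actaaggtgggtgcCGaggcaggggccagg

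The dense stretches lay at chr1:166989202-166989231 (MAEL), chr5:55738047-55738076 (DDX4), chr7:23710215-23710244 (STK31) and chr19:43414913-43414942 (TEX101), each with its middle within 64 bp of the start of the main (Ensembl canonical) transcript. The dense stretch of DDX4 held 5 CpGs and had a mean mC of 98.9% at shUHRF1 Baseline, 88.7% at Knockdown and 97.6% at Recovery. Under shDNMT1 the same stretch had 97.0%, 63.2% and 98.8%. The dense stretch of STK31, also with 5 CpGs, had 96.0% in Cl.3, 100.0% in Cl.6 and 100.0% in Cl.9 at Baseline. At Knockdown it had 86.7%, 100.0% and 100.0%, on as few as 4 CpG reads in Cl.6. In R1 it went from 100.0% to 80.8% and in R2 from 96.0% to 69.5%. In MAEL the 6 CpGs of the dense stretch had 89.4% at shUHRF1 Knockdown and 65.9% at shDNMT1 Knockdown. In all 4 dense stretches the mean of the clones at Knockdown was above that of the bulk populations. The same order held at the 4 isolated CpGs, narrowly so in MAEL (24.0% against 23.4%).

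The isolated CpGs lay at chr1:166988815-166988844 (MAEL), chr5:55738381-55738410 (DDX4), chr7:23709819-23709848 (STK31) and chr19:43414479-43414508 (TEX101), with the nearest other CpG 45, 51, 65 and 56 bp away. At the isolated CpG of TEX101 mC had a mean of 98.5% at shUHRF1 Baseline, 61.0% at Knockdown and 83.8% at Recovery, against 99.4%, 83.2% and 96.8% in the dense stretch of the same promoter. At the isolated CpG of STK31 the mean was 89.7% in the clones and 37.7% in the bulk populations at Knockdown, and at that of DDX4 81.8% and 60.7%. The isolated CpG of MAEL varied at Baseline, at 0% in Cl.3 (2 reads), 90.0% in Cl.6 (10 reads) and 33.3% in Cl.9 (24 reads). It had 27.3% in R1 and 28.6% in R2. Single CpGs had 2 to 24 reads in a library, so these values are coarse and were not tested one by one.

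At Baseline the 10 promoters were densely methylated around their main starts. Within 500 bp of the canonical start the mean Baseline mC of the 5 populations was 85% or more in 9 of 10 genes, with a median of 96.2%, against 22.1% of all 18551 promoters with enough reads there and a median of 7.38%. In these windows the germline promoters had 37 to 91 CpGs (median 59) and a ratio of observed to expected CpGs of 0.437 to 0.831 (median 0.717), near the medians of all promoters (66 and 0.725). They were thus as rich in CpGs as an average promoter but methylated where the average promoter was not. The other 9 genes stood between 90.4% and 99.1% in every Baseline library, and PIWIL1 between 67.3% and 86.1%.

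The remaining transcript starts changed the picture for a few genes. MAEL (chr1:166975582-167022214), a protein of the germ granules in which piRNAs mature, had another start region at -13698 bp from the canonical start, shared with the start of ILDR2, whose 109 CpGs had 4.96% to 13.6% at Baseline. Over all starts the Baseline mC of MAEL was therefore 41.4% in Cl.3, 47.3% in Cl.6, 35.1% in Cl.9, 36.3% in R1 and 43.7% in R2, although its canonical window had 94.2% to 98.2%. PIWIL2 (chr8:22275316-22357568) had a start region 77483 bp downstream at 0% to 1.72% and stood at 74.9% to 80.0% over all starts. PIWIL1 (chr12:130337887-130372637) had start regions with mean levels between 20.9% and 88.1%, and the canonical one, with 75.1% GC, was covered by as few as 36 CpG reads. The windows of SYCP3 also held a start of the protein-coding gene CHPT1. Those of PIWIL2 held a start of the non-coding RNA PIWIL2-DT, and those of STK31 a start of the pseudogene PCMTD1P3. Values below are over all starts unless the canonical window is named.

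**Figure D1:**
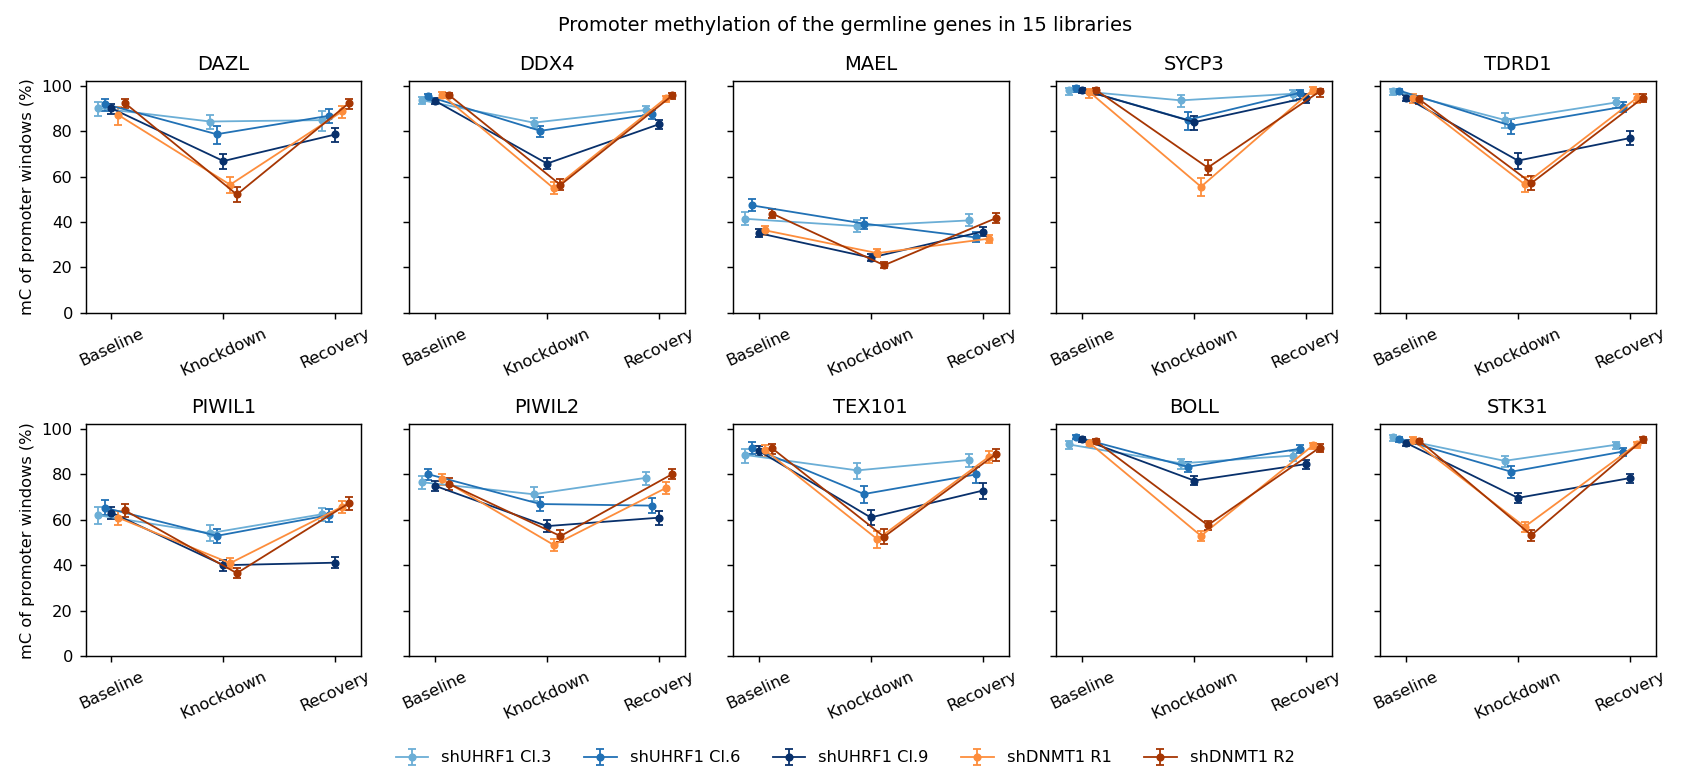
Methylation (mC, %) over all start windows of each gene at Baseline, Knockdown and Recovery, 1 line per population, with 95% Wilson intervals of the reads. At Knockdown the 3 blue points (shUHRF1 clones) lie above both orange points (shDNMT1 populations) in 8 of 10 genes (62.7% of all promoters and 77.5% of those with a Baseline mC of 85% or more), and at Recovery Cl.9 (darkest blue) lies below its own Baseline in all genes but MAEL.

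Under UHRF1 knockdown methylation fell in 10 of 10 germline promoters, against 89.3% of all tested promoters (edgeR's quasi-likelihood test on methylated and unmethylated reads, with the population as a block and Benjamini-Hochberg adjustment over 18993 promoters). Mean changes ran from -7.32 points of mC for MAEL to -18.8 points for TEX101, and each of the 30 pairs of gene and clone was lower at Knockdown. The median change of the genes was -7.33 points in Cl.3, -13.7 in Cl.6 and -23.1 in Cl.9. This order of the clones followed that of all CpGs of the genome, whose mC at Knockdown was 62.5% in Cl.3, 57.3% in Cl.6 and 42.7% in Cl.9. Since almost every promoter was called, the number of germline promoters called says little about them in particular.

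Among the RNA-binding proteins, DAZL (chr3:16586792-16670306), which promotes translation in germ cells, stood at 90.1% in Cl.3, 91.9% in Cl.6 and 90.0% in Cl.9 at Baseline and at 84.2%, 78.6% and 66.8% at Knockdown. The groups did not overlap, and the change was -14.1 ± 8.68 points (SD, n = 3; log2 odds ratio -1.58 ± 0.31 SE, adjusted p = 5.05e-05, edgeR). BOLL (chr2:197726879-197786762), the founding member of the DAZ family and needed in meiosis, went from 93.1%, 96.4% and 95.4% to 84.8%, 83.3% and 77.2% (-13.1 ± 4.98 points, adjusted p = 4.80e-08, edgeR). In the canonical window of BOLL, however, Cl.3 was 1.53 points higher at Knockdown than at Baseline, the only such pair among 30. DDX4 (chr5:55738017-55817157), the germ cell RNA helicase known as VASA, went from 93.6%, 95.2% and 93.3% to 83.7%, 80.1% and 65.7% (-17.6 ± 9.14 points, adjusted p = 1.47e-08, edgeR).

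Of the piRNA pathway, TDRD1 (chr10:114179270-114232666), a Tudor-domain scaffold that binds PIWI proteins, changed by -18.7 ± 7.91 points, from 97.8%, 97.8% and 94.7% to 84.9%, 82.3% and 67.0% (adjusted p = 2.06e-09, edgeR). The PIWI proteins themselves, which carry piRNAs to their targets, changed by -14.4 ± 7.77 points (PIWIL1, adjusted p = 0.00173, edgeR) and -12.0 ± 6.27 points (PIWIL2, adjusted p = 0.00234, edgeR). PIWIL2 stood at 71.2%, 66.9% and 57.2% at Knockdown, from 76.5%, 80.0% and 74.9%, and lost its call without the population block (adjusted p = 0.0525, edgeR). MAEL changed by -7.32 ± 3.83 points over all starts (adjusted p = 0.0415, edgeR), and this call was lost without Cl.6 (adjusted p = 0.0716, edgeR) or without Cl.9 (adjusted p = 0.229, edgeR), without the block (adjusted p = 0.179, edgeR), with windows of 250 bp (adjusted p = 0.383, edgeR), and with limma on log2 ratios (adjusted p = 0.112) or percent mC (adjusted p = 0.106). In its canonical window, free of the ILDR2 start, MAEL changed by -17.4 ± 7.36 points (adjusted p = 1.58e-06, edgeR), the largest mean loss of the canonical windows after TEX101 (-17.6 ± 10.7).

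SYCP3 (chr12:101728648-101739472), a protein of the chromosome axis in meiosis, had the highest mean mC of the 10 genes in the clones at Knockdown: 93.5% in Cl.3, 84.9% in Cl.6 and 83.9% in Cl.9, from 98.0%, 99.0% and 98.1% (-10.9 ± 5.59 points, adjusted p = 4.01e-07, edgeR). TEX101 (chr19:43401496-43418597), a surface glycoprotein of male germ cells, went from 88.5%, 91.7% and 90.3% to 81.7%, 71.3% and 61.0% (-18.8 ± 11.4 points, adjusted p = 4.14e-06, edgeR). STK31 (chr7:23710203-23832513), a testis protein with a Tudor and a kinase-like domain, went from 96.2%, 95.5% and 93.8% to 85.9%, 81.1% and 69.6% (-16.3 ± 7.17 points, adjusted p = 7.69e-09, edgeR). In all 3 genes Cl.9 was the lowest clone at Knockdown.

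Under DNMT1 knockdown the same 10 promoters fell, against 92.5% of all tested promoters, and by more. Mean changes ran from -16.3 points (MAEL) to -40.4 points (DDX4), and the median was -38.0 points in R1 and -36.9 in R2. DAZL stood at 56.4% in R1 and 52.1% in R2 at Knockdown, from 87.1% and 92.3%. BOLL stood at 52.9% and 57.6% (from 93.9% and 94.5%), and DDX4 at 54.8% and 56.3% (from 96.0% and 96.0%). SYCP3, the highest in the clones, went from 97.3% and 98.1% to 55.5% and 63.9% (-38.0 ± 5.41 points, SD, n = 2, adjusted p = 3.56e-10, edgeR). In the canonical window the 10 genes lay between 47.1% and 70.6% in R1 and between 36.4% and 64.5% in R2, the lowest being PIWIL1. Over all starts MAEL changed by -9.95 points in R1, the smallest loss of 20 pairs of gene and population, and it was no longer called without R2.

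**Figure D2:**
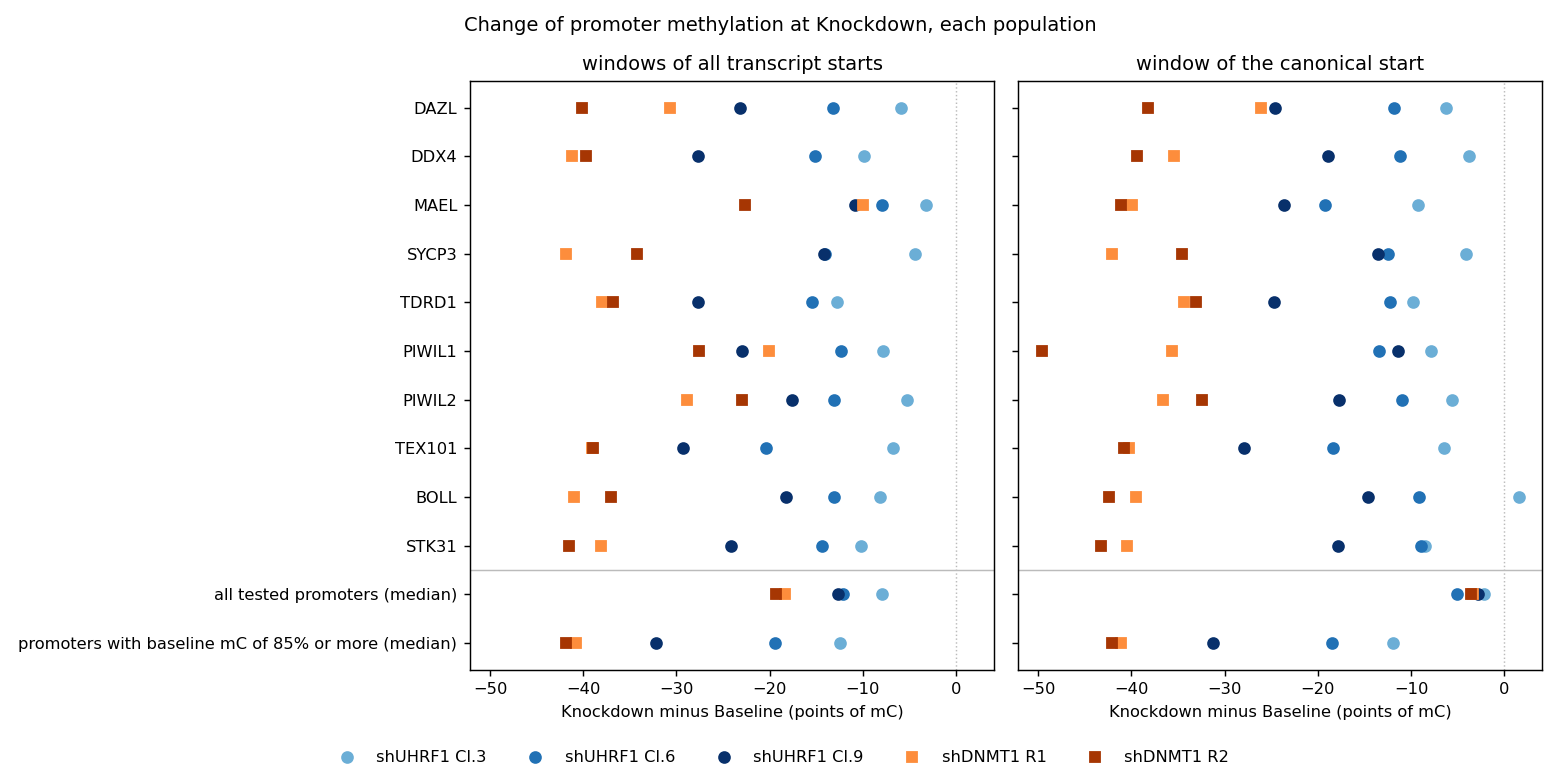
Change of mC (Knockdown minus Baseline, points) of each gene in each population, over all start windows (left) and in the canonical window (right), with the medians of all tested promoters and of promoters with a Baseline mC of 85% or more below the line. In the canonical window the shDNMT1 points lie between -49.6 and -26.1 and the shUHRF1 points between -27.9 and 1.53, with the shDNMT1 points of MAEL, PIWIL1 and PIWIL2 further right over all starts.

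In the canonical window every clone was above both bulk populations at Knockdown in 10 of 10 genes, or in 9 of 9 without PIWIL1, which had too few reads there to be tested, against 45.0% of all promoters and 73.7% of the 4091 promoters with a Baseline mC of 85% or more. Over all starts this held in 8 of 10 genes, all but MAEL and PIWIL1, against 62.7% of all promoters and 77.5% of those with a Baseline mC of 85% or more, a share close to that of the germline genes. The difference between the changes under the 2 shRNAs was called for 4 of 10 genes, against 22.7% of all promoters in that direction and 37.2% of the 3558 promoters with a Baseline mC of 85% or more over all starts. The genes were DAZL (log2 ratio of the odds ratios 1.36 ± 0.484 SE, adjusted p = 0.0433), DDX4 (2.00 ± 0.404, adjusted p = 0.00371), BOLL (1.60 ± 0.395, adjusted p = 0.00912) and STK31 (1.49 ± 0.399, adjusted p = 0.0138), all in edgeR. TEX101 missed the threshold narrowly (adjusted p = 0.0501, edgeR), and in points of mC, tested with limma, 7 genes were called, the 4 above with SYCP3, TDRD1 and TEX101. None of the 10 genes was called without R1, without R2 or without the population block, where 1, 0 and 0 of all 18993 promoters were. The difference of DDX4 was then 1.98, 2.05 and 2.04 on the log2 scale, and that of DAZL 1.87, 0.80 and 1.40. Of these fits the one without R2 moved DAZL most, and in the canonical window its difference was lower still (0.58). DAZL was also not called without Cl.3, without Cl.6 or in the canonical window (adjusted p = 0.685, edgeR), where the other 3 were. The call of DAZL was lost too with windows of 250 bp (adjusted p = 0.229, edgeR) and with limma on log2 ratios (adjusted p = 0.0649), and that of BOLL with only CpGs of 5 reads in all libraries (adjusted p = 0.203, edgeR).

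Of the clones, Cl.9 came closest to the bulk populations in the level left at Knockdown. Over all CpGs of the genome it had 42.7% at Knockdown, against 40.3% in R1 and 39.4% in R2. Its Baseline was 71.7%, against 73.7% in both R1 and R2, so it had lost less than they had. In the canonical windows of the germline genes its median was 75.9%, against 57.1% in R1 and 56.4% in R2. In the bodies of the same genes, from 1 kb past the start to the end, the medians were 50.1%, 47.0% and 46.5%. For all promoters with a Baseline mC of 85% or more the canonical medians were 60.0%, 51.7% and 50.9%, so a gap was seen there too. With 1 clone against 2 populations this comparison was not tested.

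**Figure D3:**
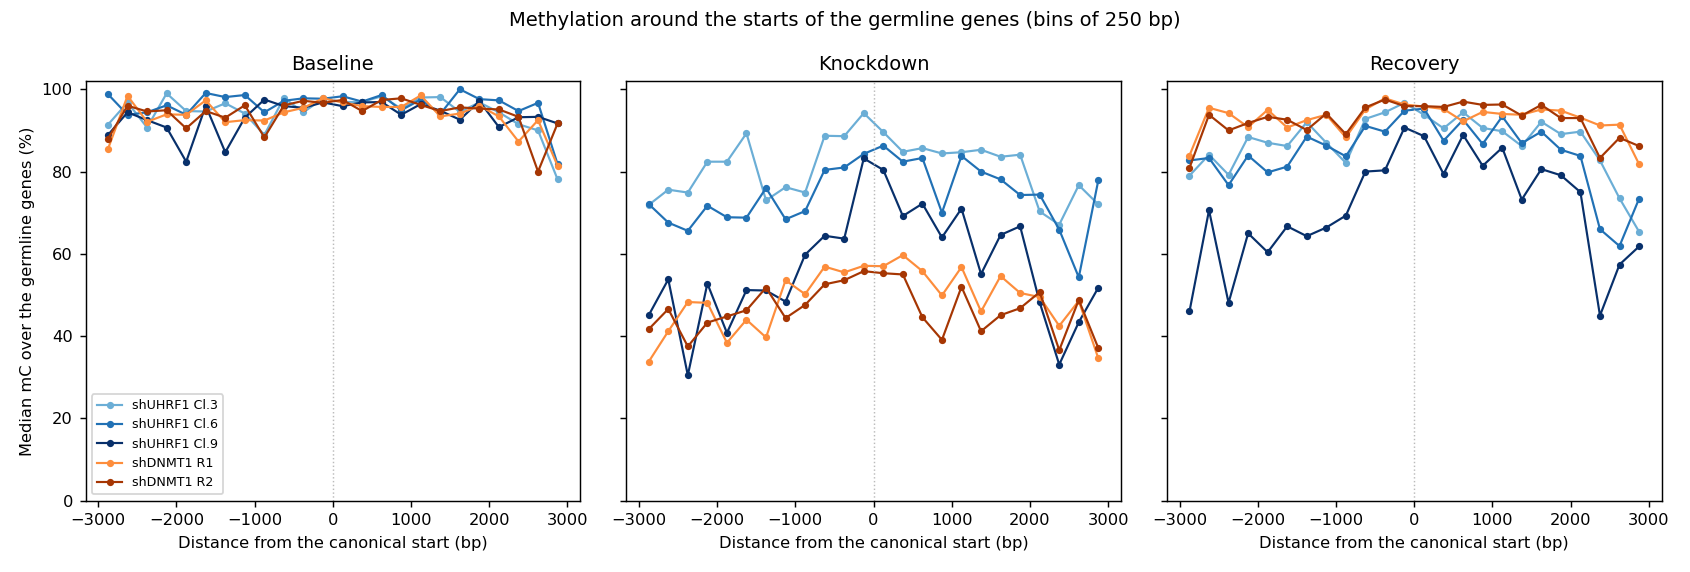
Median mC (%) over the germline genes in bins of 250 bp around the canonical start, at each stage, 1 line per population. At Knockdown Cl.9 peaks at 83.2% in the bin just before the start and has 52.8% in the bin from -2250 to -2001 bp, while R1 and R2 have 57.1% and 55.8% before the start and 48.1% and 43.3% in that bin.

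Around the start the shape of the loss differed. In the 250 bp before the start the median over the genes at Knockdown was 94.2% in Cl.3, 84.3% in Cl.6, 83.2% in Cl.9, 57.1% in R1 and 55.8% in R2. In the bin from -1000 to -751 bp it was 74.9%, 70.4%, 59.8%, 50.2% and 47.6%. Cl.9 lay above R1 and R2 in both bins. In the bin from -2500 to -2251 bp it was below both, with 30.5% against 48.3% and 37.5%. In the bins on either side of that one it was above both, with 53.8% against 41.2% and 46.6% from -2750 to -2501 bp. From -2250 to -2001 bp it had 52.8% against 48.1% and 43.3%. In other upstream bins Cl.9 lay between R1 and R2. It had 40.8% against 38.4% and 44.8% from -2000 to -1751 bp, and 51.1% against 39.7% and 51.8% from -1500 to -1251 bp. From -1250 to -1001 bp it had 48.4% against 53.6% and 44.4%. The bins are not independent of each other, and the difference in shape was not tested.

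Compared with other methylated promoters, the germline promoters lost less under UHRF1 knockdown and about as much under DNMT1 knockdown. In the canonical window the median change over the genes was -12.3 ± 5.99 points under shUHRF1 (SD over clones, n = 3), against -20.5 ± 9.80 points for the 4091 promoters with a Baseline mC of 85% or more. Under shDNMT1 it was -39.1 ± 1.44 points against -41.6 ± 0.728 points (n = 2). The gap was found within each clone, with changes of -6.38, -12.0 and -18.4 points against -11.9, -18.5 and -31.2 points in Cl.3, Cl.6 and Cl.9. These are medians set side by side, and no test of the list was made.

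The number of CpGs differed between these sets. The 4091 methylated promoters had a median of 31 CpGs in the canonical window, the germline promoters 59. Methylated promoters with 5 to 19 CpGs had a median change of -24.6 ± 11.5 points under shUHRF1, those with 40 to 59 CpGs -17.4 ± 8.29 points, and those with 60 to 79 CpGs -15.8 ± 7.79 points. DAZL, SYCP3, PIWIL2 and BOLL, which fall in the last of these ranges, changed by -14.2, -10.0, -11.4 and -7.38 points. DDX4, MAEL and STK31, with 40 to 59 CpGs, changed by -11.3, -17.4 and -11.8 points, and TDRD1 and TEX101, with 20 to 39 CpGs, by -15.6 and -17.6 points, where all promoters of that range had -22.7 ± 10.4. Of these 9 genes, all but MAEL lost less than the median of their range, and MAEL equalled it. The ranges were chosen after the values had been seen, and these differences were not tested. Under shDNMT1 the medians were -44.1 points with 5 to 19 CpGs and -37.7 points with 60 to 79.

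**Figure D4:**
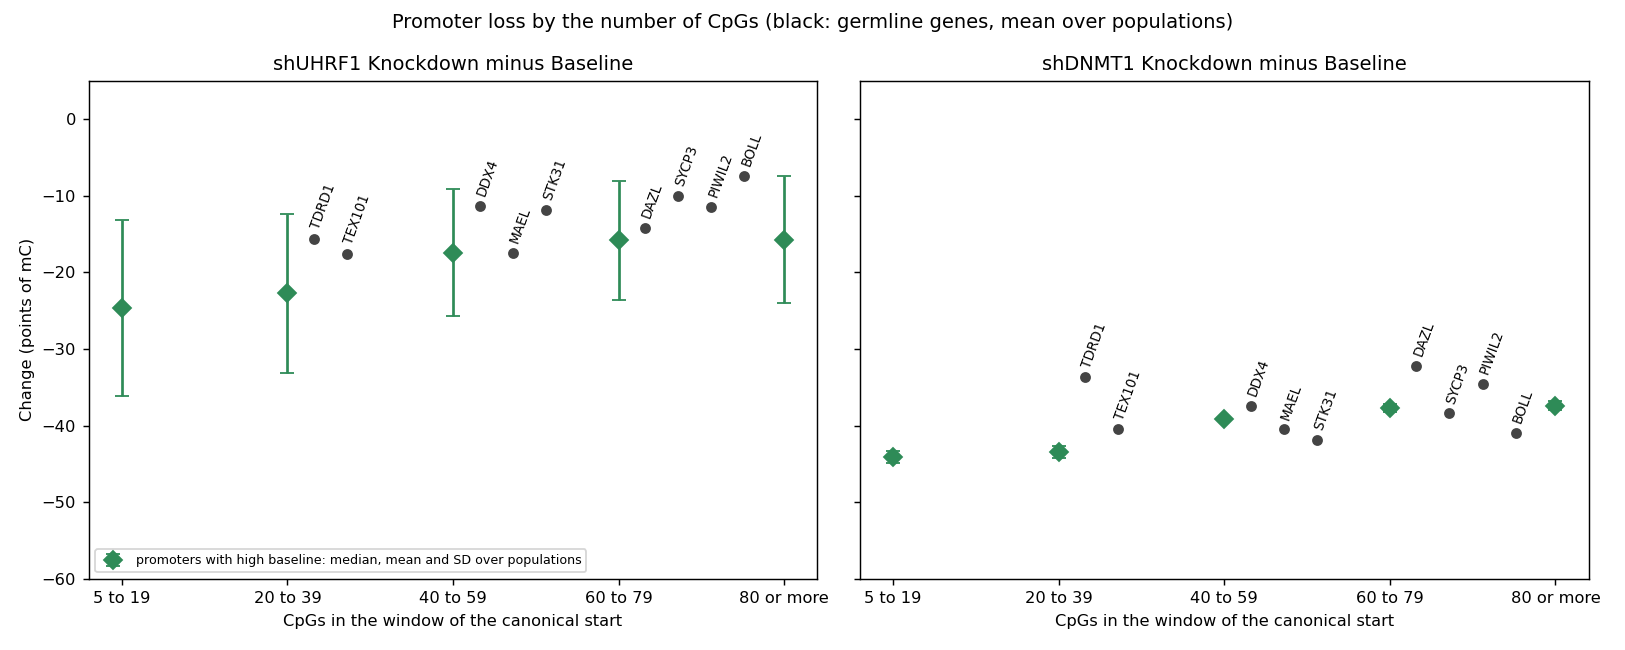
Knockdown minus Baseline (points of mC, canonical window) by the number of CpGs in the window, for promoters with a Baseline mC of 85% or more (green, mean and SD over populations of the median) and for 9 germline genes (black, means; PIWIL1 had a lower Baseline). The green points rise from -24.6 to -15.7 under shUHRF1, and the germline genes lie at or above the point of their own range there, while under shDNMT1 they lie on both sides.

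Within the germline promoters, low-density CpGs (nearest CpG at least 20 bp away) lost more than high-density CpGs in every population. In Cl.9 the mean change at Knockdown was -33.7 points over 166 low-density CpGs and -15.7 points over high-density ones. The gap between both classes was -8.91 points in Cl.3, -10.7 in Cl.6, -18.0 in Cl.9, -8.63 in R1 and -8.35 in R2. Between the shRNAs it differed by -4.05 points (exact permutation p = 0.2), and by -1.31 points without Cl.9. This p doubles the share of splits of the populations that were at least as extreme in the same direction. Its smallest value for 3 against 2 populations is 0.2. Splits that mix the shRNAs and were wider in the other direction did not enter it. These classes were pooled over all starts and include CpGs with little methylation at Baseline. Among CpGs with a Baseline mC of 0.85 or more the gaps at Knockdown were -10.8, -14.9, -20.9, -9.94 and -10.0 points, in the same order. In the canonical window they were -9.51, -17.0, -18.4, -3.76 and -8.58 points. The difference between the shRNAs was then -5.57 and -8.81 points. At Recovery the gap over all starts was -4.38, -6.82 and -13.0 points in the clones and -0.477 and -3.33 points in R1 and R2.

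**Figure D5:**
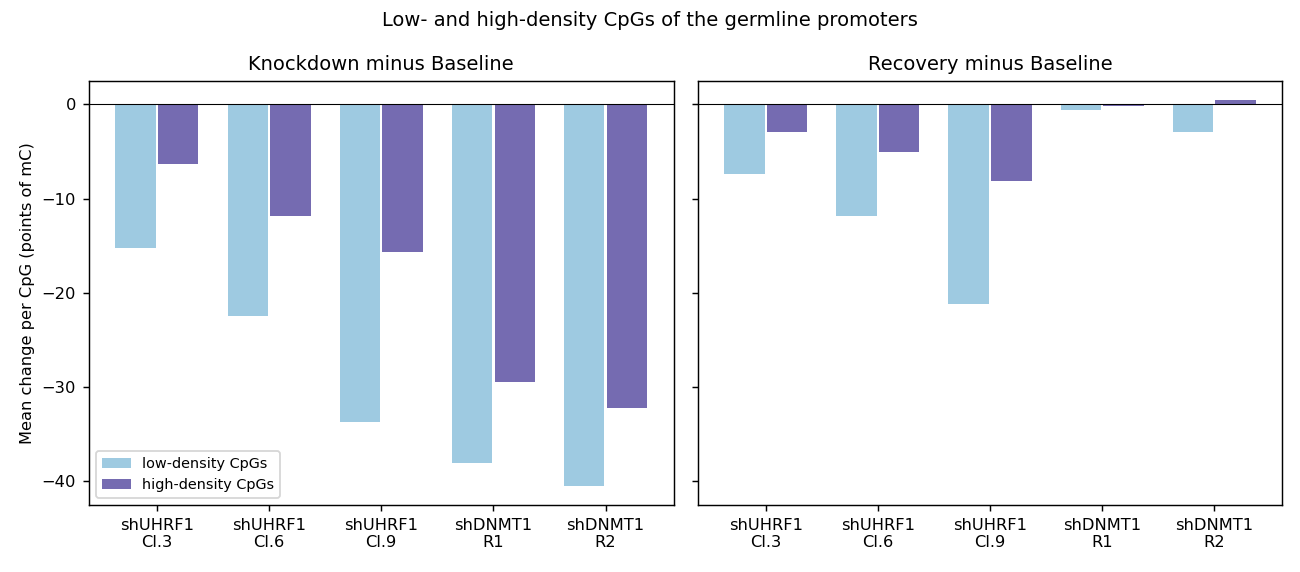
Mean change per CpG (points of mC) of low- and high-density CpGs in the germline promoters, at Knockdown (left) and Recovery (right) against Baseline, by population. Low-density CpGs changed more in all 5 populations at Knockdown, and in the clones a deficit remained at Recovery in both classes.

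A CpG was taken as hypomethylated where its mC (as a fraction) was 0.85 or higher at Baseline and dropped by 0.3 or more. This applied to 36 of 316 highly methylated CpGs of the germline promoters in Cl.3 (11.4%), 18.6% in Cl.6 and 32.2% in Cl.9, against 71.8% in R1 and 75.4% in R2. Over all such CpGs of the genome the shares were 16.3%, 27.8%, 54.3%, 77.2% and 78.6%. The germline promoters were below the genome in all 5 populations. The genome shares cover CpGs of every density, whereas the highly methylated CpGs of the germline promoters were mostly high-density. No such share was taken for other methylated promoters. CpGs needed 5 reads at all stages to be counted, and those of 1 promoter share reads.

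After doxycycline was removed, methylation came back close to Baseline under shDNMT1 and in part under shUHRF1. Under shDNMT1 all 10 promoters rose from Knockdown to Recovery, against 91.7% of all promoters, by 13.5 points (MAEL) to 39.4 points (DDX4). The median gene regained 96.5% of its loss in R1 and 99.5% in R2. None of the 10 differed from Baseline, against 0.0% of all promoters called lower in this comparison, where edgeR called 0 and limma 0 while 559 promoters had an unadjusted p under 0.05 (none of the 10 genes among them). The changes from Baseline ran from -2.81 points (MAEL) to 3.94 points (PIWIL1). In R1 the rise of MAEL was 6.35 points, the smallest of 20 pairs of gene and population, and it was no longer called without R2.

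Under shUHRF1, 5 of 10 promoters rose from Knockdown to Recovery, against 29.7% of all promoters and 63.1% of those with high Baseline mC. They were DDX4 (10.0 ± 6.39 points, adjusted p = 0.00841), SYCP3 (8.44 ± 4.87, adjusted p = 0.00436), TDRD1 (8.67 ± 1.17, adjusted p = 0.0131), BOLL (6.16 ± 2.45, adjusted p = 0.0287) and STK31 (8.21 ± 1.06, adjusted p = 0.0095), all in edgeR with n = 3 clones. The other 5 had mean differences of 2.65 to 8.31 points that missed the threshold. Of 30 pairs of gene and clone, 28 rose and 2 fell further (MAEL and PIWIL2 in Cl.6). Without Cl.6 only DDX4 was called, and without Cl.9 only SYCP3, TDRD1 and STK31, while over all 18993 promoters the calls went from 5637 to 1369 and 1681. Without the population block none was called, as for all 18993 promoters (0 called), and in the canonical window only SYCP3 was, with 594 of all 18551 promoters. With limma on percent mC none of the 5 was called, while 2776 of all promoters were. BOLL lost its call with limma on log2 ratios (adjusted p = 0.0791) and with CpGs of 5 reads (adjusted p = 0.0614, edgeR). With windows of 250 bp BOLL (adjusted p = 0.0602) and DDX4 (adjusted p = 0.1, both edgeR) lost theirs. The median gene regained 66.0% of its loss in Cl.3, 57.4% in Cl.6 and 40.0% in Cl.9, and in the canonical window 65.9%, 56.1% and 49.3%. These canonical medians include BOLL in Cl.3, which had no loss to regain there. They also include PIWIL1 (428%, -78.8% and -86.6%), which had few reads in that window.

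Compared with Baseline, 8 of 10 promoters were still lower at shUHRF1 Recovery, against 59.3% of all promoters and 96.7% of those with high Baseline mC. TEX101 (-10.5 ± 7.78 points, adjusted p = 0.00163) and TDRD1 (-9.99 ± 6.77, adjusted p = 4.88e-06) had the widest deficits, and SYCP3 the narrowest of those called (-2.47 ± 0.992, adjusted p = 0.0204), all in edgeR. TDRD1 stood at 92.6% in Cl.3, 90.7% in Cl.6 and 76.9% in Cl.9 at Recovery, each below its own Baseline. SYCP3 had returned to 96.4%, 96.8% and 94.6%. Of 30 pairs of gene and clone, 27 were below Baseline at Recovery and 3 above (PIWIL1 and PIWIL2 in Cl.3, MAEL in Cl.9). MAEL and PIWIL1 were not called over all starts, although MAEL was in its canonical window (adjusted p = 0.00318, edgeR), and in PIWIL1 Cl.9 was at 41.1% while Cl.3 and Cl.6 were at 62.4% and 62.0%. With windows of 1000 bp both were called (MAEL adjusted p = 0.00416, PIWIL1 adjusted p = 0.00646, both edgeR), as were 14527 of all 19376 promoters. PIWIL1 was also called with CpGs of 5 reads (adjusted p = 0.00296, edgeR) and without Cl.3 (adjusted p = 0.0128, edgeR). Without Cl.9 the calls of DAZL, SYCP3 and PIWIL2 were lost, leaving 5, and without the block 4 remained (DDX4, TDRD1, BOLL and STK31). With limma on percent mC, DAZL (adjusted p = 0.0839), DDX4 (0.0613), SYCP3 (0.412) and PIWIL2 (0.0542) lost their calls. TDRD1, TEX101, BOLL and STK31 kept theirs. The call of PIWIL2 was lost without any population but Cl.3 (adjusted p = 0.0588 to 0.293, edgeR), with windows of 250 bp, with CpGs of 5 reads and with limma, that of SYCP3 also without Cl.6 (adjusted p = 0.0719, edgeR) and with windows of 250 bp (adjusted p = 0.0687, edgeR), and that of BOLL in the canonical window (adjusted p = 0.0937, edgeR).

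The median difference from Baseline at shUHRF1 Recovery was -7.23 ± 5.08 points, against -11.5 ± 6.58 points for all promoters with high Baseline mC, and it was -4.48 points without Cl.9. MAEL, PIWIL1 and PIWIL2 are below that Baseline level over all starts; in the canonical window the medians were -5.70 ± 3.90 and -11.0 ± 6.55 points. The deficit differed from that of shDNMT1 for 2 of 10 genes, TDRD1 (log2 ratio of the odds ratios -2.29 ± 0.502 SE, adjusted p = 0.0075, edgeR) and STK31 (-1.32 ± 0.421, adjusted p = 0.033, edgeR), against 18.4% of all promoters in that direction and 45.0% of those with high Baseline mC. Neither was called without R1, without R2 or without the block, where 1 of all 18993 promoters was in each case, or on the scale of percent mC, where 0 were. Without R1, without R2 and without the block the difference of TDRD1 was -2.39, -2.16 and -2.16 on the log2 scale. That of STK31 was -1.65, -0.98 and -1.25. STK31 was also not called in the canonical window (adjusted p = 0.0894, edgeR), where DAZL was (-2.91, adjusted p = 0.033, edgeR), with windows of 250 bp (adjusted p = 0.127, edgeR) or with limma on log2 ratios (adjusted p = 0.0605). Without Cl.3 there were 7 calls and without Cl.9 only TDRD1, while over all promoters the calls went from 3498 to 6803 and 471.

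The domain lists deposited for each library place the starts in larger stretches of highly methylated domains (HMDs) or partially methylated domains (PMDs). At Baseline 9 of 10 canonical starts lay in an HMD in each of the 5 libraries, all but PIWIL1, against 79.4% to 85.3% of starts with a Baseline mC of 85% or more. At Knockdown the number in HMDs was 6 in Cl.3, 5 in Cl.6 and 0 in Cl.9, R1 and R2, against 39.0%, 10.0%, 0.0%, 0.0% and 0.0% of those starts. In Cl.9 the starts of 9 genes, all but PIWIL1, were in PMDs, and their canonical windows had 65.1% (TEX101) to 85.0% (SYCP3) mC, and 71.9% of highly methylated starts were in PMDs there. At Recovery the clones had 8 (Cl.3), 7 (Cl.6) and 3 (Cl.9) starts in HMDs, and the bulk populations 9 (R1) and 10 (R2), against 69.4%, 62.6%, 14.5%, 77.4% and 77.1% of highly methylated starts. These counts of 10 genes were not tested against those shares. In Cl.9 these 3 were DAZL, DDX4 and SYCP3, and SYCP3 lay in an HMD of 123.0 kb. Some starts lay in no listed domain. At Knockdown these were 3 in Cl.3, 3 in Cl.6, 1 in Cl.9, 3 in R1 and 2 in R2, and at Recovery 2, 2, 5, 1 and 0. DAZL lay in none at Recovery in Cl.3 and Cl.6, although its canonical start region had 95.4% and 96.2% mC there. In Cl.9 that region had 86.9% and the HMD spanned 2.83 kb. The authors called these classes in each library separately.

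The motifs of factors known to bind germline promoters hold a CpG. The E-box CACGTG, bound by MAX and its partner MGA, was found on either strand within 500 bp of the canonical start in 7 of 10 genes (DAZL, DDX4, MAEL, TDRD1, PIWIL1, PIWIL2 and STK31), against 18.3% of all promoters. The E2F site TTCCCGC was found in PIWIL2 and BOLL, 2 of 10, against 21.6%, and the cAMP response element TGACGTCA in none, against 3.5%. The E-box CpG of DDX4, 20 bp before the start and 8 bp from the next CpG, had 88.6% over 35 reads of the 3 clones at Knockdown and 52.9% over 34 reads of both bulk populations. A TDRD1 E-box CpG whose nearest neighbour lay 76 bp away had 45.3% over 53 reads at shUHRF1 Baseline, and 31.6% in the clones and 34.7% in the bulk populations at Knockdown, while the E-box CpGs of the same promoter nearer to others had 97.6% and 100.0% at shUHRF1 Baseline. A match is a run of letters, and binding was not measured.

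Other germline genes, taken from lists by function, were read in the same way. Of the piRNA pathway 14 of 16 genes could be tested, and all 14 fell under shUHRF1 and 13 under shDNMT1. All 21 genes of the meiotic axis and recombination fell under both, and all 20 of germ cell specification, translation and transcription. These counts lie near the shares of all promoters, 89.3% and 92.5%. The difference between the shRNAs at Knockdown was called for 5 of 14, 13 of 21 and 12 of 20 genes, against 22.7% of all promoters and 37.2% of those with high Baseline mC. Without the population block 0 of all 18993 promoters were called for this difference, so these calls too depend on the block. At shUHRF1 Recovery 11, 15 and 18 genes of the 3 groups were still called lower than Baseline, against 59.3% of all promoters and 96.7% of those with high Baseline mC. At shDNMT1 Recovery 0 of any group were, as was the case for all promoters tested (0.0%). Their Baseline levels varied more than those of the 10 genes: in the canonical window 10 of 14, 11 of 21 and 17 of 20 were at 85% or more.

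Among tested genes of the piRNA group the highest Baseline levels over all starts were those of TDRD6, a Tudor protein (98.0%), and ASZ1, a germ granule protein (96.1%), which changed by -15.4 and -17.9 points under shUHRF1 and by -33.5 and -33.8 under shDNMT1. The lowest was PLD6, a mitochondrial enzyme of piRNA processing, at 1.87%. In the meiotic group they were REC8, a cohesin subunit (97.1%), and HORMAD1, an axis protein (96.6%), with -17.0 and -14.5 points under shUHRF1 and -43.4 and -35.5 under shDNMT1, and the lowest was the cohesin subunit RAD21L1 at 5.97%. In the last group they were STRA8, which is induced by retinoic acid at entry into meiosis (97.1%), and ADAD1 (96.8%), with -19.0 and -14.4 points under shUHRF1 and -48.8 and -30.9 under shDNMT1, and the lowest was the transcription factor TFAP2C at 10.8%.

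Outside these lists, the promoters whose mC over the 15 libraries came closest to the median of the 10 genes were those of CPB1, GSDMB, GP6, LRRC43 and ARL10, with root mean square differences of 1.15 to 1.44 points. The median of the germline genes had means of 92.3%, 76.5% and 84.0% at Baseline, Knockdown and Recovery in the clones and of 92.6%, 53.4% and 91.3% in the bulk populations. CPB1 had 93.2%, 75.6% and 83.8%, and 92.3%, 53.0% and 90.5%. The likeness is of levels over libraries that share populations, and it is a description.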

How the data were processed

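Per the labels, whole-genome bisulfite reads were processed with Meth10X v1.2 against hg38, and the authors deposited, for 29456478 CpG positions, the count of methylated reads and the count of all reads in each of 15 libraries, with lists of domains for each library. The submitters' processing notes name bedtools 2.25.0. Removal of duplicate reads is not given in the sources used here. All 30 count columns were assigned to libraries by their names.

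CpG counts on the autosomes, X and Y were summed within 500 bp of GENCODE release 44 starts. Promoters with at least 5 CpGs and 50 reads in each library were tested with edgeR 4.0.16 (quasi-likelihood, methylated and unmethylated counts of all 15 libraries, population as block, R 4.3.3) with Benjamini-Hochberg adjustment and a threshold of 0.05. limma 3.58.1 gave alternatives. One simulation of 18993 promoters for the shUHRF1 Knockdown comparison recovered 66.5% of 200 changed promoters, and 4.32% of its calls were false. In the data themselves 16965 of 18993 promoters were called lower in that comparison, far more than the 200 changed in the simulation. The simulated spread between libraries was also taken from the Baselines of R1 and R2. These differed less (mean chi-square per promoter 5.61) than the Baselines of the clones (9.77 to 37.2). For both reasons the simulated rates cannot be carried over to the shUHRF1 tests above. The labels give the same population at all 3 stages, and deviations of Baseline and Knockdown or Recovery libraries correlated within clones (r 0.26 to 0.398) and hardly within bulk populations (r 0.00241 and 0.00468).

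Wilson 95% intervals were at most ±4.28 points over all starts and at most ±12.0 points in the canonical window. They cover counting error only, and 1 read can cover several CpGs. Domain lists served only for the class at each start, which was also read at all tested canonical starts. The members and lists were chosen with earlier results of these data known. The genes named from the other germline lists were the 2 highest and the lowest in Baseline mC over all starts among the tested genes of each. Python 3.11.15, numpy 2.4.6, pandas 2.3.3, scipy 1.17.1 and pysam 0.24.0 were used.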

Additional observations from a re-analysis of the deposited data

Results flagged for a closer look

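The change at Knockdown differed between the shRNAs by the test of the difference itself (edgeR's quasi-likelihood test, Benjamini-Hochberg adjustment) for 4 germline genes. On the log2 scale the difference was 1.36 for DAZL, 2.00 for DDX4, 1.60 for BOLL and 1.49 for STK31, with less loss under shUHRF1 in each. The share called was 22.7% over all promoters and 37.2% over those with high Baseline mC, near that of the germline genes, and none of the 4 was called without R1, without R2 or without the population block.

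At Recovery the change from Baseline differed for 2 genes, TDRD1 (-2.29 on the log2 scale) and STK31 (-1.32), with a wider deficit under shUHRF1. The share called was 18.4% over all promoters and 45.0% over those with high Baseline mC, and neither gene was called without R1, without R2, without the block or on percent mC. STK31 was also not called in the canonical window (where DAZL was, at -2.91), with windows of 250 bp, with limma on log2 ratios or without Cl.9. The shRNA cannot be told apart from the kind of population or the count table in these comparisons.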

How the results depend on the processing

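The number of germline promoters called for a rise from shUHRF1 Knockdown to Recovery was 5, and was 1 in the canonical window (9 tested), 3 with windows of 250 bp, 3 with only CpGs of 5 reads in all libraries (8 tested), 0 with limma on percent mC and 0 with no replicate block, and 1 to 7 with a population left out. The number called below Baseline at shUHRF1 Recovery was 8 of 10, and was 10 with windows of 1000 bp and 6 with 250 bp. It was 4 with limma on percent mC, 4 with no replicate block, and 5 to 9 with a population left out. The number of differences called at Knockdown was 4, and was 7 with windows of 1000 bp, where calls over all promoters also went from 4305 of 18993 to 9344 of 19376, 2 with CpGs of 5 reads (8 tested, DAZL not among them), 7 with limma on percent mC, 0 with no replicate block, and 0 to 5 with a population left out. The number at Recovery was 2, and was 1 with 250 bp (950 of all 18101 promoters, against 3498 of 18993), 4 with 1000 bp (6559 of 19376), 4 with CpGs of 5 reads (8 tested), 1 with limma on log2 ratios, 0 with limma on percent mC, 0 with no replicate block, and 0 to 7 with a population left out. With a population left out, 9 to 10 promoters were called for both Knockdown comparisons and for the shDNMT1 rise, and 0 for shDNMT1 Recovery against Baseline.

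The median change at shDNMT1 Knockdown (-37.5 points) was -39.1 in the canonical window, -35.1 with 250 bp, -35.0 with CpGs of 5 reads and -34.6 unweighted. The rise at shDNMT1 Recovery (35.8) was 37.9 in the canonical window, 34.4 with CpGs of 5 reads and 34.7 unweighted. With a population left out, the medians ranged from -18.4 to -10.5 (shUHRF1 Knockdown), 6.66 to 9.29 (shUHRF1 rise), -9.49 to -4.48 (shUHRF1 Recovery against Baseline), -38.0 to -36.9, 35.3 to 36.3 and -1.42 to -0.198 (the same for shDNMT1), and the density gap from -5.86 to -1.31.

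Of 1016 results of single genes under alternatives, 18 changed sign, all without a call either way. In shDNMT1 Recovery against Baseline (log2) they were DAZL with 250 bp (-0.72) and without R1 (-0.0051), SYCP3 in the canonical window (-0.15), with 250 bp (-0.43) and without R1 (-0.45, against 0.58 without R2), TDRD1 with CpGs of 5 reads (-0.059) and without R2 (-0.020), PIWIL1 with CpGs of 5 reads (-0.060), PIWIL2 with 250 bp (-0.024), with CpGs of 5 reads (-0.048) and without R2 (-0.31, against 0.36 without R1), BOLL with CpGs of 5 reads (0.099), and STK31 in the canonical window (0.21) and without R1 (0.18, against -0.49 without R2). MAEL changed sign in the shUHRF1 rise without Cl.9 (-0.12, against 0.48 without Cl.6), in shUHRF1 Recovery against Baseline without Cl.6 (0.0022), and in the difference at Recovery with 250 bp (0.17) and without Cl.6 (0.18, against -0.27 without Cl.9). The cause was not tested. Depth limits single CpGs and the canonical window of PIWIL1. It also limits DAZL, SYCP3 and BOLL, where 4 of 110, 6 of 71 and 17 of 205 CpGs had 5 reads in all libraries. DAZL and SYCP3 could not be tested with those CpGs alone.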
